A study of Homo sapiens
Mus musculus and Mus musculus and Homo sapiens with 16 samples.

Results

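The Fc receptor-like family was examined in REC-1, a human mantle cell lymphoma cell line, through the 7 genes FCRL1, FCRL2, FCRL3, FCRL4, FCRL5, FCRLA and FCRLB, found by symbol among the 58051 genes of the human count table. All 7 passed the filter on low counts and were among the 12861 genes fitted. The family was selected on differences between these same REC-1 libraries that were already known, so the levels and differences of its members are given as a description with no test. FCRL6, the remaining receptor of the family, had 0 counts in all 12 REC-1 libraries and was not among the 7. At these depths a count of 0 allows a level of up to between 0.14 and 0.387 CPM (counts per 1000000 counts) in a library, for counting error only.

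RNA was sequenced from REC-1 cells in monoculture (Sep), from REC-1 cells that stayed in suspension during 24 h of coculture with the mouse stromal cell line MS-5 (Susp), and from REC-1 cells that adhered to the MS-5 layer (Adh), with 4 libraries in each group. MS-5 cells cultured alone gave another 4 libraries, which hold mouse counts only here. Adherent cells were not detached, so each Adh library held human and mouse RNA together, and the authors divided the read pairs by species by computer. All REC-1 groups are the same cell line with no added drug or genetic change, and all MS-5 cells are the same stromal line. The groups thus model 1 lymphoma line on mouse rather than human stroma. In the study's methods the lymphoma lines were kept in RPMI medium, and cocultures under the conditions of MS-5 cells, kept in αMEM. The medium of the Sep cultures is not stated there. If it was RPMI, effects of medium and of stroma cannot be told apart in comparisons with Sep. Nothing in the labels says what separates the 4 libraries of a group, so a p-value here measures the spread between these libraries, which may be partly technical, although the study text calls them independent experiments.

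Fc receptor-like proteins are relatives of the classical receptors for the Fc part of antibodies and are made mainly by B cells. FCRL1 to FCRL5 sit in the cell membrane. Their tails carry tyrosine motifs that draw in either activating kinases or the phosphatases PTPN6, PTPN11 and INPP5D, and so set how strongly the B cell receptor signals. FCRLA and FCRLB lack such a tail and stay inside the cell, where FCRLA binds immunoglobulin in the endoplasmic reticulum.

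All 7 genes lie on chromosome 1. In GRCh38 the membrane receptors form a row of 306.7 kb on the minus strand: FCRL5 (chr1:157513377-157552515), FCRL4 (chr1:157573747-157598085), FCRL3 (chr1:157674321-157700769), FCRL2 (chr1:157745733-157777132) and FCRL1 (chr1:157794403-157820120). FCRLA (chr1:161706972-161714352) and FCRLB (chr1:161721544-161728143) stand together on the plus strand, 3887 kb further along, beside the classical FCGR genes. FCRL6 lies between these 2 sites. The 200 bases before the start of the canonical transcript are shown for the 5 membrane receptors because these 5 genes were lower together in the coculture libraries. They run 5′ to 3′ on the gene strand, which is the minus strand of GRCh38, from chr1:157552516-157552715 (FCRL5), chr1:157598086-157598285 (FCRL4), chr1:157700770-157700969 (FCRL3), chr1:157777133-157777332 (FCRL2) and chr1:157820121-157820320 (FCRL1). Capitals mark matches to the motifs described after them.
FCRL5: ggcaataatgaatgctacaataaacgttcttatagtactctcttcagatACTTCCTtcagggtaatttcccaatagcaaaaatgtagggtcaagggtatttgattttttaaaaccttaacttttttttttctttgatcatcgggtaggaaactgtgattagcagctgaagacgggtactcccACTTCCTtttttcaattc
FCRL4: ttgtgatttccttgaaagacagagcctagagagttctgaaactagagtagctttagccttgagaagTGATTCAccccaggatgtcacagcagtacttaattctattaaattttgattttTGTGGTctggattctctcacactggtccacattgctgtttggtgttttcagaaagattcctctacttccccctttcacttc
FCRL3: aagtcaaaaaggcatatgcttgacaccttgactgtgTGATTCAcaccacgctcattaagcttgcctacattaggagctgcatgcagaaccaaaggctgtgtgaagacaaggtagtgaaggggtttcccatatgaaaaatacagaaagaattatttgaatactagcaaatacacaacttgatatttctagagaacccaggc
FCRL2: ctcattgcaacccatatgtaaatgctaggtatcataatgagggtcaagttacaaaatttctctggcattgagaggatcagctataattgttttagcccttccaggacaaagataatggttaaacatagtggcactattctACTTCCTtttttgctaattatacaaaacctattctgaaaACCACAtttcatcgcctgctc
FCRL1: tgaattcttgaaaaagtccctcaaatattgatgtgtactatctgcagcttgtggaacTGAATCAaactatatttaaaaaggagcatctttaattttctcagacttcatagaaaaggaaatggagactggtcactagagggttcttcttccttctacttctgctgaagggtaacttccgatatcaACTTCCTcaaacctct

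The windows were searched on both strands for the octamer ATGCAAAT, the ETS motif AGGAAGT, the E-box CAGGTG and the EBF palindrome CCCNNGGG. The RUNX motif TGTGGT, the TATA box TATAAA and the letters TGANTCA, a looser form of the AP-1 motif, were searched as well. N is any base, and no marked matches overlapped. The ETS letters, known from factors such as PU.1, were found in FCRL1, FCRL2, FCRL5 (at 2 places) and FCRLA, against 5.73% of 20046 windows of protein-coding genes. In FCRL1 and FCRL5 a match began 16 and 18 bases before the start. The letters TGANTCA were found in FCRL1, FCRL3 and FCRL4, against 3.76% of all windows. In each the middle base was A or T, and no window of the family held the usual AP-1 site with C or G there. The RUNX letters were found in FCRL2 and FCRL4, against 7.09%. The octamer was found in FCRLB alone among the 7 (1.24% of all windows). No window of the family held the E-box (13.9%), the EBF palindrome (16.9%) or TATAAA (7.82%). The 7 windows were 35.5% to 40.5% G and C, below the median of 64.5% over all windows. The shares over all windows were not matched for base composition, so nothing is read from the comparison with them. The FCRLA window is not shown because it falls inside exons of other FCRLA transcripts. These matches are letters in a window and not measured binding sites.

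Human counts per library ran from 9325412 to 12597891 in Sep, from 15000927 to 21467832 in Susp and from 7758979 to 13241751 in Adh. Between 347 and 7794 fragments of each library fell on each of FCRL1, FCRL2, FCRL3, FCRL4, FCRL5 and FCRLA, and between 50 and 164 on FCRLB, so counting error matters chiefly for FCRLB. Summed B cell and mantle cell lymphoma markers (MS4A1, CD79A, CD79B, PAX5, CCND1 and SOX11) stood at 4695 to 5420 CPM in Sep, 5125 to 6061 CPM in Susp and 4927 to 5515 CPM in Adh and were abundant in every library. The human orthologues of 6 stromal matrix genes summed to no more than 5.91 CPM in any library, 5 T and NK cell genes to no more than 7.83 CPM and 4 myeloid genes to no more than 2.2 CPM. Susp replicate 2 was the lowest Susp library for FCRL1, FCRL3 and FCRL5 and the highest for FCRLA and FCRLB, and the differences of the members between Sep and Susp are therefore also given without it.

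FCRL4, a receptor known from tissue memory B cells that binds IgA, showed the largest difference of the family from Sep to Susp. Sep replicates 1 to 4 stood at 84.6, 73.4, 65.8 and 73.1 CPM. The Susp libraries stood at 42.5, 37.7, 36.4 and 33.5 CPM and the Adh libraries at 54.9, 49.97, 52.3 and 44.5 CPM. Every Sep library was above every Adh library, and every Adh library above every Susp library, an order without overlap that 0.0622% of the genes fitted (8 of 12861) showed. The means were 74.2 ± 7.74 CPM in Sep, 37.5 ± 3.78 CPM in Susp and 50.4 ± 4.41 CPM in Adh (SD, n = 4 each). The fitted log2 difference was -0.98 (SE 0.11) from Sep to Susp, a level 49.4% lower (-0.996 without Susp replicate 2), and -0.56 (SE 0.11) from Sep to Adh, 32.0% lower. From Sep to Adh FCRL3 (-0.63) and FCRL2 (-0.59) differed more than FCRL4. In these bulk libraries fewer cells that make a transcript and less transcript in each cell cannot be told apart.

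**Figure D1:**
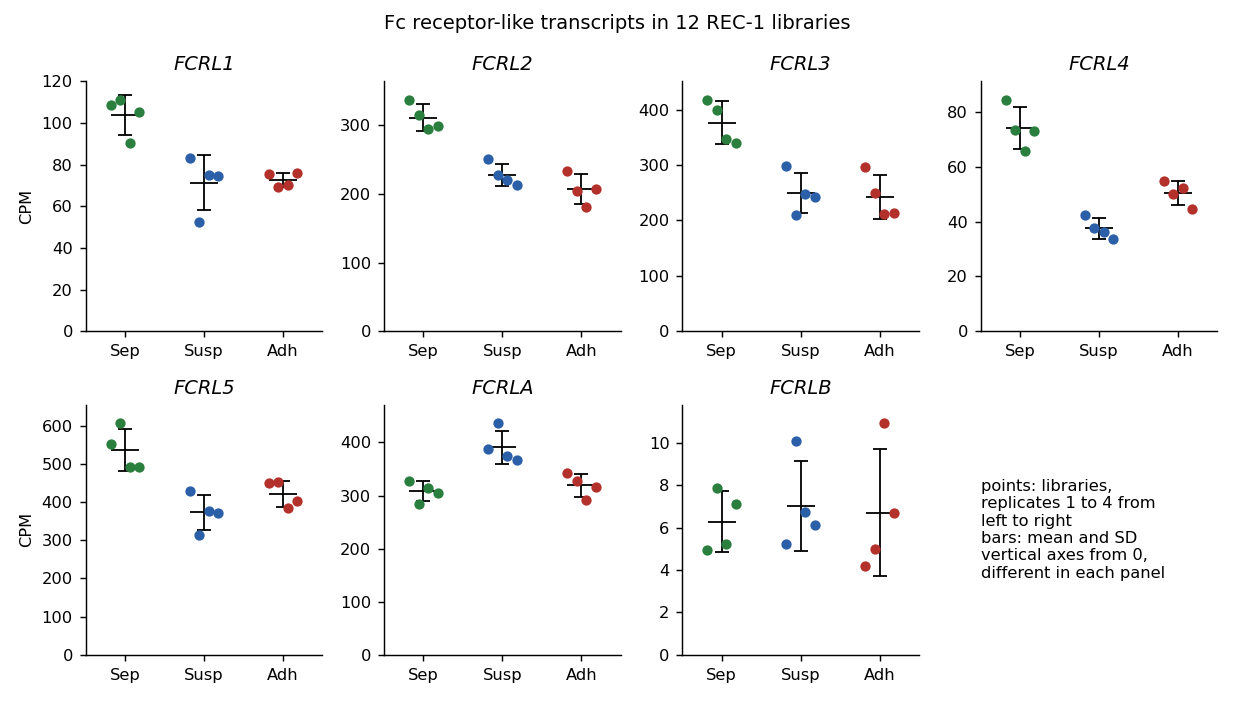
Level of each Fc receptor-like gene in CPM (vertical axes, from 0 and different in each panel) in the Sep, Susp and Adh libraries of REC-1. Points are libraries, bars the mean and SD of 4. In FCRL4 the groups do not overlap, with Susp lowest at a mean of 37.5 CPM, and FCRLA is highest in Susp at 391.2 CPM.

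FCRL5, a receptor that binds IgG, had the highest mean CPM of the family over the 12 REC-1 libraries. In Susp the mean of FCRLA was higher, at 391.2 against 372.7 CPM for FCRL5. The Sep libraries of FCRL5 stood at 551.4, 606.1, 491.7 and 492.4 CPM. Its Susp libraries stood at 427.6, 314.6, 376.7 and 371.8 CPM and its Adh libraries at 449.3, 452.4, 383.8 and 403.1 CPM. All 8 coculture libraries were below all 4 Sep libraries, while Susp and Adh overlapped. The log2 difference was -0.52 (SE 0.10) in Susp and -0.34 (SE 0.10) in Adh, the smallest Adh difference among the membrane receptors. Without Susp replicate 2 the Susp difference was -0.46.

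FCRL3, which binds secretory IgA, stood at 418.3, 400.2, 347.4 and 340.3 CPM in Sep, at 297.9, 210.6, 247.3 and 242.3 CPM in Susp and at 295.7, 250.0, 211.3 and 214.0 CPM in Adh. Both coculture groups lay below the monoculture libraries and covered nearly the same range as each other. The log2 difference from Sep was -0.59 (SE 0.12) in Susp and -0.63 (SE 0.12) in Adh. Without Susp replicate 2 the Susp difference was -0.53.

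FCRL2, whose tail holds both inhibitory and activating motifs, stood at 337.7, 315.6, 294.1 and 298.7 CPM in Sep, at 251.0, 227.2, 220.5 and 212.5 CPM in Susp and at 233.8, 204.8, 181.2 and 208.0 CPM in Adh. The coculture libraries again lay below every Sep library. The log2 difference was -0.45 (SE 0.09) in Susp, or -0.46 without Susp replicate 2, and -0.59 (SE 0.09) in Adh. Between Adh and Susp its difference was -0.14 (SE 0.09), with overlapping libraries.

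FCRL1, the member with an activating tail, stood at 108.6, 111.2, 90.2 and 105.1 CPM in Sep. Its Susp libraries stood at 83.3, 52.6, 75.0 and 74.3 CPM and its Adh libraries at 75.5, 69.2, 70.0 and 75.8 CPM. All coculture libraries were below the Sep libraries, and the value of 52.6 CPM in Susp replicate 2 made the Susp group the widest, at an SD of 13.1 CPM against 3.49 CPM in Adh. The log2 difference was -0.54 (SE 0.12) in Susp, or -0.43 without that library, and -0.52 (SE 0.12) in Adh. The activating receptor was thus lower along with the receptors that carry inhibitory motifs.

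FCRLA, the intracellular immunoglobulin-binding member, went the other way in suspension. It stood at 328.0, 283.7, 314.6 and 305.7 CPM in Sep, at 386.8, 436.2, 373.9 and 367.9 CPM in Susp and at 342.4, 327.4, 291.3 and 316.1 CPM in Adh. Every Susp library was above every Sep library and above every Adh library, while Adh overlapped with Sep. How many of all fitted genes showed this order was not counted, so nothing is read from it. FCRLA did not meet the call rule given below, or its adjusted p-value alone, in any comparison. Its log2 difference from Sep was 0.35 (SE 0.08) in Susp, or 0.28 without Susp replicate 2, and 0.05 (SE 0.08) in Adh. The difference of Adh from Susp was -0.29 (SE 0.08), or -0.22 without that library.

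FCRLB, the other intracellular member, had the lowest counts of the family, at 50 to 164 in a library. It stood at 4.96, 7.87, 5.23 and 7.10 CPM in Sep, at 5.24, 10.1, 6.72 and 6.11 CPM in Susp and at 4.21, 5.01, 10.9 and 6.67 CPM in Adh. The 3 groups overlapped, and its log2 differences of 0.16 (SE 0.28) in Susp and 0.06 (SE 0.29) in Adh were smaller than their errors. Without Susp replicate 2 the sign in Susp changed, to -0.07.

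Across the family, 5 of 7 genes had every Susp library below every Sep library, where 5.85% of all fitted genes did, and the same 5 had every Adh library below every Sep library, where 8.3% of all genes did. FCRL1 to FCRL5 met both conditions at once, as did 2.6% of all genes. The genes were picked with these levels known, so nothing is read from the counts. The Susp and Adh comparisons share the same 4 Sep libraries. The median log2 difference of the 7 genes was -0.52 in Susp and -0.52 in Adh, and of all genes fitted -0.01 and -0.00.

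**Figure D2:**
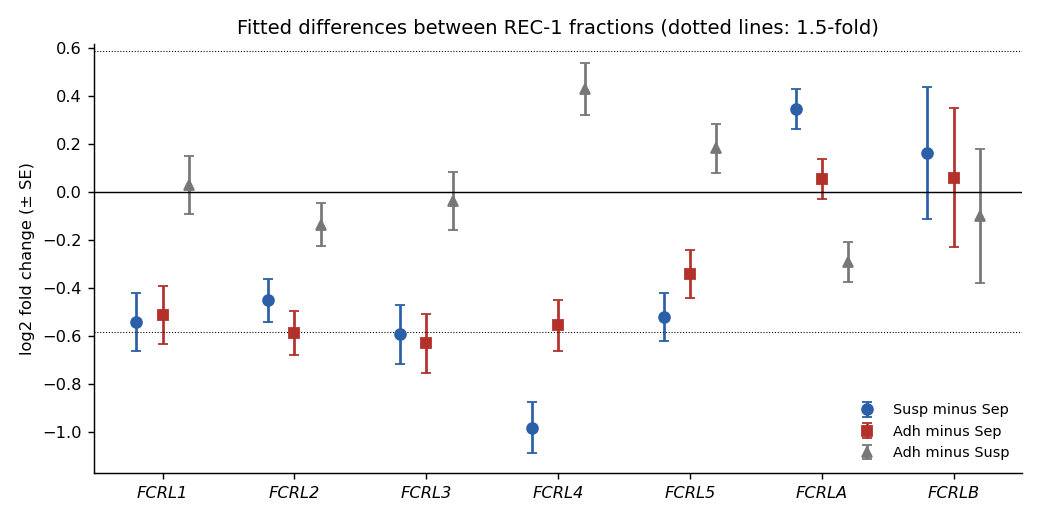
Fitted log2 fold change (vertical axis) of each member between REC-1 groups, with bars of 1 SE, dotted lines at a 1.5-fold change and a line at 0. The 5 membrane receptors lie below 0 in both comparisons with Sep, FCRL4 lowest at -0.98 in Susp, and FCRLA lies above 0 in Susp at 0.35.

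A gene was called when its Benjamini-Hochberg adjusted p-value in edgeR was at most 0.05 over all genes fitted and its fold change at least 1.5. From Sep to Susp this rule was met by FCRL3 and FCRL4, against 0.731% of all genes in either direction and 0.303% in the lower direction. From Sep to Adh it was met by FCRL2 and FCRL3, against 2.4% of all genes and 1.82% in the lower direction. At the adjusted p-value alone, without the minimum fold, 5 members were lower in Susp (0.412% of all genes) and 4 in Adh (2.29%). No member met the rule between Adh and Susp, where 0.778% of all genes did. Several members lay just above or below the fold limit of 1.5. FCRL3 at -0.59 in Susp and FCRL2 at -0.59 in Adh were just inside it. FCRL4 at -0.56 in Adh and FCRL1 at -0.54 in Susp were just outside. FCRL4 in Susp met the rule in all 15 settings tried. FCRL3 in Susp met it in 9, and left it when any 1 of Sep replicates 1, 2 and 3 or Susp replicates 2, 3 and 4 was left out. Without Sep replicate 3 (-0.63) or Susp replicate 3 (-0.5851) FCRL3 in Susp was still beyond the fold limit, so those calls were lost on the adjusted p-value. In Adh, FCRL2 met the rule in 11 settings and left it without Sep replicate 1 or 2 or Adh replicate 2 or 3. FCRL3 in Adh met the rule in 12 and left it without Sep replicate 1 or Adh replicate 3 or 4.

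Levels can be set between genes only per length of transcript. With the union of all annotated exons as the length, FCRLA led in Sep at 94.0 ± 5.69 CPM per kilobase, followed by FCRL2 at 61.6 ± 3.91, FCRL3 at 58.4 ± 5.98, FCRL5 at 43.1 ± 4.42, FCRL1 at 26.3 ± 2.38, FCRL4 at 19.1 ± 1.99 and FCRLB at 2.41 ± 0.543 (SD, n = 4). On this scale FCRL2 and FCRL3 overlapped in Sep, and the other neighbours in the order did not. With the length of the canonical transcript, FCRL5, whose exon union of 12414 bases is much longer than its canonical transcript of 5385 bases, moved to 99.4 CPM per kilobase and above FCRL3 at 81.2, and the rest of the order stayed. The place of FCRL5 therefore depends on which transcripts the cells make, which gene counts do not show.

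**Figure D3:**
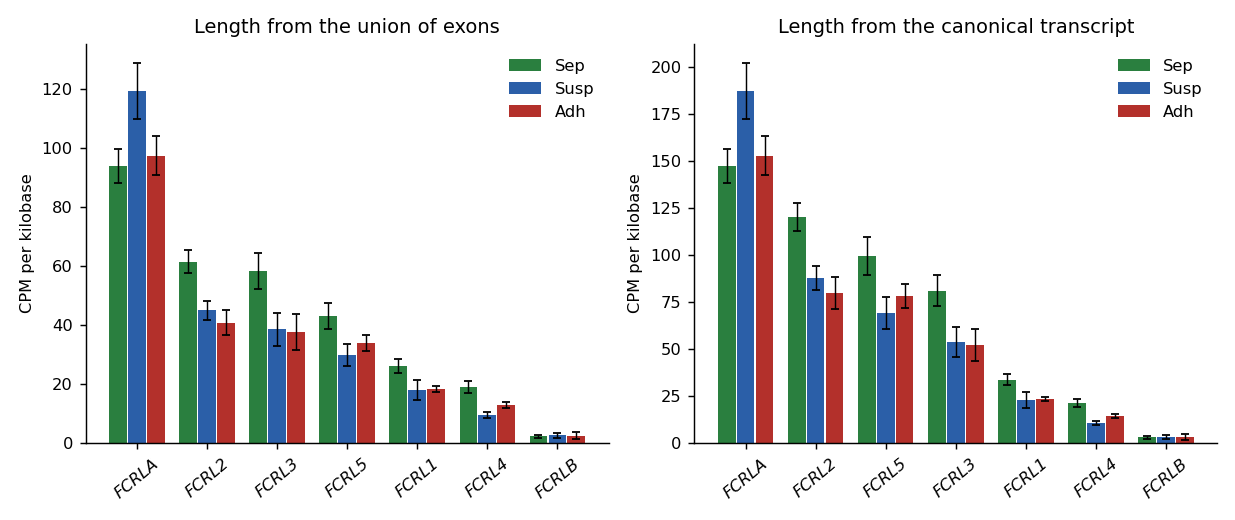
Level per kilobase of transcript (vertical axis, CPM per kilobase, from 0) in Sep, Susp and Adh, with bars at the mean of 4 libraries and error bars of 1 SD. Genes are ordered by their level in Sep for each choice of length. FCRLA leads in both panels, and FCRL5 and FCRL3 change places, at 43.1 and 58.4 with the exon union and 99.4 and 81.2 with the canonical transcript.

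The makeup of the family changed with the fraction. The 7 genes together took 1740 ± 119.7 CPM in Sep (here before TMM scaling), 1334 ± 112.5 in Susp and 1320 ± 115.1 in Adh (SD, n = 4). FCRL5 made up 31.2% of these fragments in Sep, 27.4% in Susp and 32.0% in Adh. FCRLA made up 18.01% in Sep, 28.9% in Susp and 24.2% in Adh. Without Susp replicate 2 the Susp shares were 28.4% for FCRL5 and 27.3% for FCRLA, so the order of these 2 members in Susp turned on that library. FCRL4 made up 4.32% in Sep, 2.76% in Susp and 3.83% in Adh.

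Over the 12 libraries the log2 levels of FCRL1 to FCRL5 moved together, with Pearson correlations of 0.76 (FCRL2 and FCRL4) to 0.94 (FCRL2 and FCRL3) among their 10 pairs. After the group means were removed the range was 0.26 (FCRL1 and FCRL4) to 0.88 (FCRL3 and FCRL5). FCRL2, FCRL3 and FCRL4 were each highest in replicate 1 of all 3 groups. FCRLA correlated with the membrane receptors at -0.70 to -0.24 over the 12 libraries, but at -0.51 to 0.55 with the group means removed, where its values with FCRL2, FCRL3 and FCRL4 were above 0. FCRLB correlated with them at -0.45 to -0.19, and at -0.74 to -0.18 with the group means removed. These values are a description: all genes of a library share its depth and group, and the difference between Sep and coculture is itself part of each correlation. Identical sequence is short between the members, the longest run shared by 2 canonical transcripts being 49 bases (FCRL2 and FCRL5) and no run of FCRL4 with another member being longer than 17 bases, and fragments that aligned to more than 1 place had been dropped. FCRL3 overlaps RP11-367J7.3 on the opposite strand, and the library kit does not mark strand, so fragments of the overlap cannot be assigned to either gene with certainty.

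Of all fitted genes, the one whose log2 level followed FCRL5 most closely was CR2, a complement receptor of B cells (r = 0.95 over 12 libraries, 0.81 with group means removed), followed by HIVEP3 and BRCA1 (both 0.94). CPT1A, the carnitine transferase that admits fatty acids to mitochondria, was among the 3 genes closest to both FCRL2 and FCRL3 (r = 0.96 with each). The others were RAB11FIP4 (0.96) and DENND3 (0.95) for FCRL2, and LZIC and CCDC18 (both 0.96) for FCRL3. FCRL4 was followed most closely by SS18 (0.94), STK17A and LAPTM5 (both 0.93), the last a lysosomal protein of blood cells. FCRL1 was followed by CDYL2, SREK1 (both 0.97) and ZCCHC11 (0.96). FCRLA had SLC25A5, the mitochondrial ADP and ATP carrier (0.93), HADH and C14orf119 (both 0.91), and FCRLB had SAP30BP (0.90), TBCD (0.89) and COG8 (0.88). Of these 20 genes 3 were also among the first 3 by Spearman correlation (SREK1, STK17A and SLC25A5), so most of the choice depends on the measure. With group means removed, the Pearson correlations of the 20 genes with their members ran from 0.55 (STK17A with FCRL4) to 0.96 (SREK1 with FCRL1).

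The genes around the row of receptors were looked at for comparison. This list and those after it were, like the members, chosen with earlier results of these data known. Their p-values and calls are therefore a description. Of 36 listed genes near the family on chromosome 1, 35 were in the table and 15 could be fitted. Of all human genes fitted, 0.731% were called in Susp and 2.4% in Adh against Sep, and 0.778% between Adh and Susp. These shares stand beside each human list. Counts at an unadjusted p under 0.05 are given without a share over all genes, so nothing is read from them. In edgeR 0 of the 15 were called in either comparison with Sep. At an unadjusted p under 0.05 there were 5 in Susp and 2 in Adh. DESeq2 called 0 in Susp and 1 in Adh (SH2D2A), as did edgeR with a replicate block. The nearest fitted gene on one side, ETV3, had a log2 difference of -0.22 in Susp and -0.07 in Adh, and on the other side CD1D, which presents lipids to T cells, had -0.10 and -0.15. The median of the 15 was 0.15 in Susp and 0.07 in Adh, with 5 of 15 below 0 in each. SH2D2A, which codes for a T cell adapter, was at 38 counts or fewer in every library and had the highest value in both comparisons (1.58 and 1.88).

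**Figure D4:**
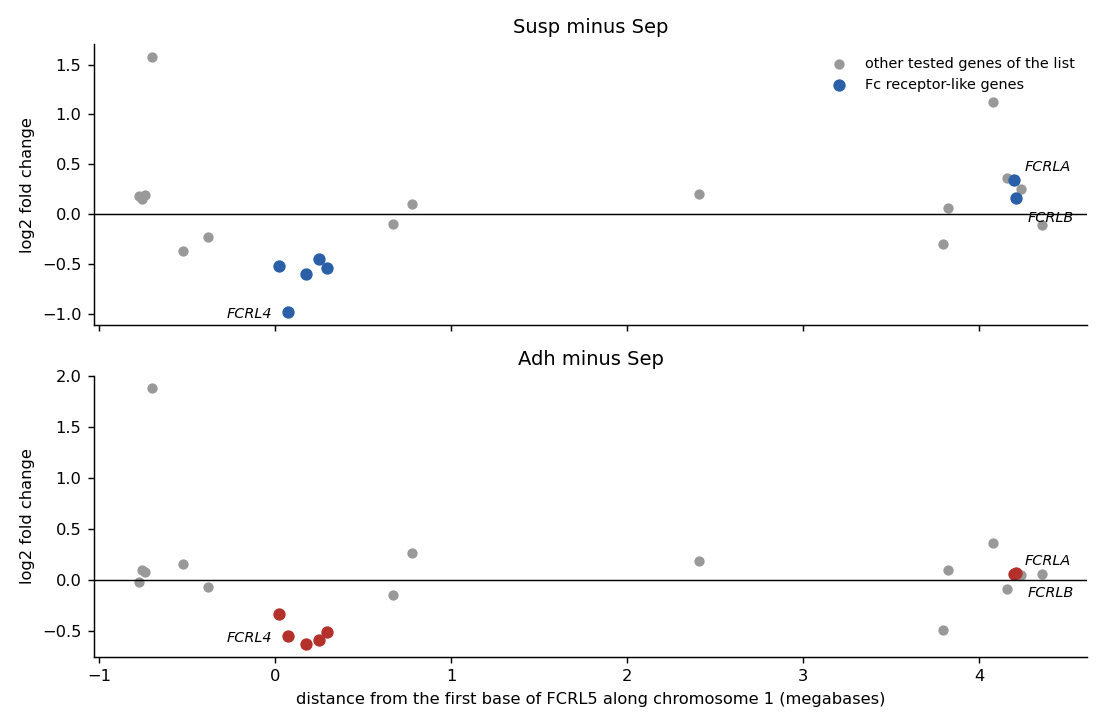
Log2 fold change (vertical axes) of the 7 family members and of 15 other fitted genes against the distance of the gene's middle from the first base of FCRL5 (horizontal axis, megabases), with Susp minus Sep above and Adh minus Sep below. The 5 membrane receptors lie between -0.98 and -0.34, and FCRLA and FCRLB, about 4 megabases further on, lie above 0.

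Proteins that act at the tails of these receptors were less uniform. Of 19 listed kinases, phosphatases and adapters 18 were fitted, and in each comparison with Sep 1 rose and 0 fell by the call rule. Of all genes fitted 0.731% were called in Susp and 2.4% in Adh. LCK, a Src-family kinase better known from T cells, was the listed gene that rose. It stood at 6.15 ± 0.854, 9.87 ± 1.07 and 9.41 ± 0.766 CPM (log2 0.68 in Susp and 0.61 in Adh, edgeR adjusted p = 0.0424 and 0.0438). Its call was lost in 8 of 15 settings in Susp, among them without Susp replicate 2, and in 9 of 15 in Adh.

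INPP5D, the inositol phosphatase SHIP1, had 568.9 ± 26.2 CPM in Sep, 424.8 ± 35.2 CPM in Susp and 423.7 ± 8.02 CPM in Adh, with no overlap between Sep and coculture (log2 -0.42 and -0.43, edgeR adjusted p = 0.0093 and 0.00458), a change under the fold limit. The tyrosine phosphatases PTPN6 and PTPN11 did not pass the test (log2 0.36 and -0.26 in Susp, 0.18 and -0.07 in Adh, edgeR adjusted p = 0.0681 or more). LYN and SYK, the 2 most abundant genes of the list, stood at 888.3 and 776.4 CPM in Sep, 839.4 and 767.3 CPM in Susp and 831.2 and 833.5 CPM in Adh, and neither passed the test. The median of the 18 genes was 0.0025 in Susp and -0.00039 in Adh. Between Adh and Susp edgeR called 0 of the 18, with 2 at an unadjusted p under 0.05, and DESeq2 called 0.

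Receptors that act beside the B cell receptor moved in both directions. Of 13 listed 10 were fitted, and in Susp 2 rose and 2 fell by the call rule, against 0.731% of all genes in either direction. CR2 (CD21) and CR1 (CD35), the complement receptors, were lower: CR2 at 184.3 ± 12.6 CPM in Sep and 119.3 ± 17.96 CPM in Susp (log2 -0.63, SE 0.10, edgeR adjusted p = 0.0055), and CR1 at 50.1 ± 5.18 and 29.0 ± 5.84 CPM (log2 -0.79, SE 0.13, edgeR adjusted p = 0.0059). CR2 was no longer called without Susp replicate 2, at a log2 difference of -0.54. In Adh CR1 fell (29.96 ± 2.27 CPM, log2 -0.74, edgeR adjusted p = 0.00532), the 1 call of the list there, and CR2 stood at 143.1 ± 6.66 CPM (log2 -0.37, edgeR adjusted p = 0.0645).

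The inhibitory receptors CD72 and PECAM1 rose in Susp, CD72 from 22.9 ± 1.46 to 37.8 ± 5.96 CPM (log2 0.72, edgeR adjusted p = 0.00604) and PECAM1 from 18.7 ± 1.31 to 30.3 ± 2.77 CPM (log2 0.70, edgeR adjusted p = 0.00385). CD22, a sialic acid-binding inhibitory receptor, passed the adjusted p-value in both fractions but not the fold limit (log2 0.43 and 0.39, edgeR adjusted p = 0.0236 and 0.025), and so did CD79B, part of the B cell receptor itself, in Susp (0.55, edgeR adjusted p = 0.031). Between Adh and Susp edgeR called 0 of the 10, with 4 at an unadjusted p under 0.05, and DESeq2 called 0.

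**Figure D5:**
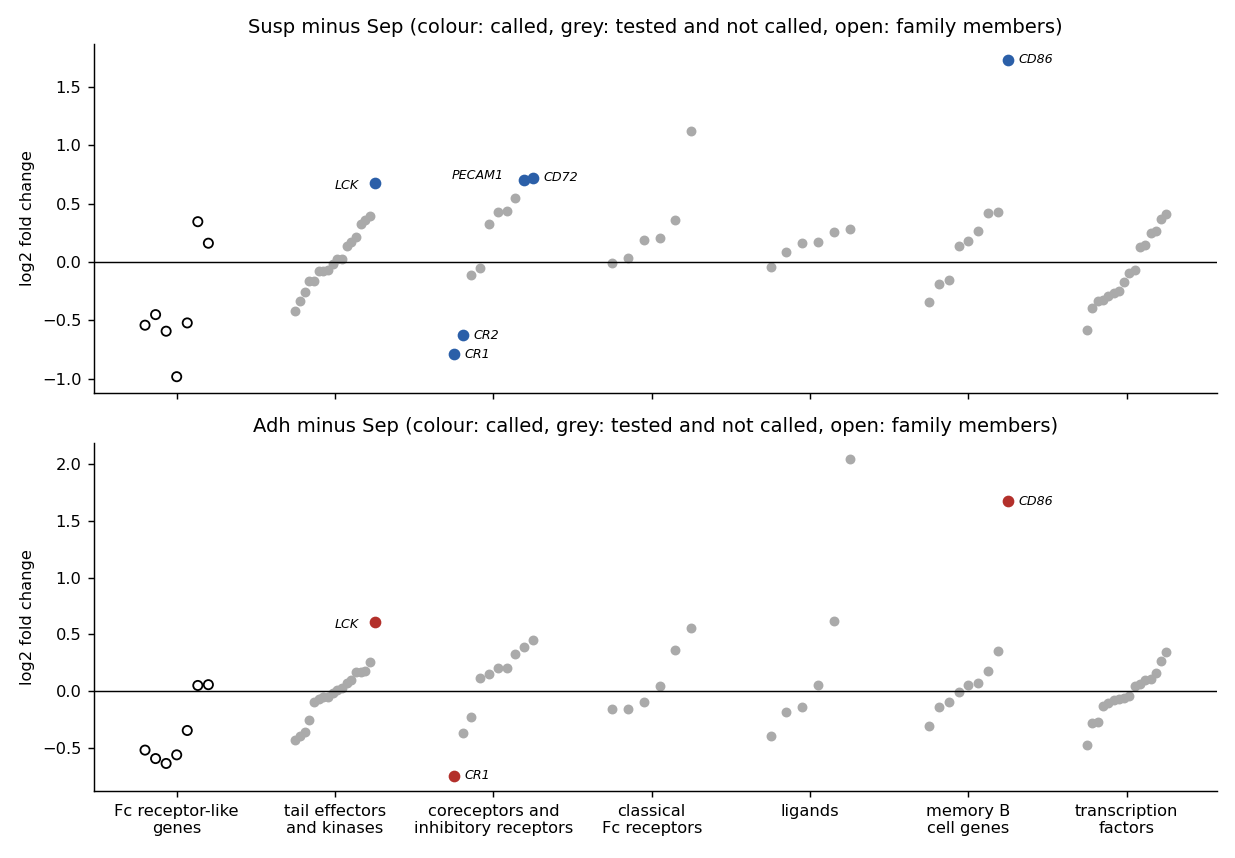
Log2 fold change (vertical axes) of the family members and of each fitted gene of 6 lists, Susp minus Sep above and Adh minus Sep below. Open circles are the members, in the order FCRL1 to FCRL5, FCRLA and FCRLB, coloured points are called genes with their names and grey points are genes that were fitted and not called. CD86 is the highest called point in both panels, at 1.73 and 1.67, and CR1 the lowest.

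Most genes of a list of classical Fc receptors and other immunoglobulin receptors had few or no counts. Of 16 listed, 6 had 0 counts in all 12 libraries and 6 were fitted. FCGR2B, the inhibitory IgG receptor of B cells, was the most abundant, at 50.4 ± 4.87 CPM in Sep, 64.7 ± 3.21 CPM in Susp and 47.2 ± 4.26 CPM in Adh. Every Susp library of it was above every Sep library (edgeR adjusted p = 0.0921), and between Adh and Susp it differed by a log2 of -0.46 (edgeR adjusted p = 0.0331), under the fold limit. In the group means TRIM21 stood at 16.5 to 17.2 CPM, FCMR, the IgM receptor, at 13.0 to 16.5 CPM and the IgE receptor FCER2 at 9.43 to 13.8 CPM. edgeR and DESeq2 each called 0 of the 6 in all 3 comparisons, with 2 in Susp, 1 in Adh and 2 between Adh and Susp at an unadjusted p under 0.05. FCGR2C is nearly identical to its neighbours and its 3 to 22 counts are uncertain.

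Among genes for proteins that the family binds, IGHM, the heavy chain of IgM, was the most abundant, at 4678 to 5248 CPM in the group means. Of 11 listed 6 were fitted and edgeR called 0 of them, with 0 in Susp, 1 in Adh and 3 between Adh and Susp at an unadjusted p under 0.05. IGHA1, the heavy chain of IgA1, stood at 60.4 ± 13.8 CPM in Sep, 72.4 ± 11.1 CPM in Susp and 46.2 ± 11.5 CPM in Adh. In the group means JCHAIN stood at 36.1 to 49.9 CPM and the IgG heavy chains at 0.97 CPM or less. DESeq2, and also edgeR with a replicate block, called IGHA1 lower in Adh than in Susp and HLA-DRA higher in Adh than in Sep. HLA-DRA, part of the class II molecule that FCRL6 binds, ran from 2.57 to 16.2 CPM in Adh against 0.787 to 3.18 CPM in Sep (edgeR adjusted p = 0.0654).

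FCRL4 and FCRL5 are known as markers of memory B cells that express TBX21 and ITGAX. In REC-1 TBX21 had at most 6 counts and ITGAX at most 8 counts in a library. Of the 13 genes of that list 9 were fitted and 1 was called, against 0.731% of all genes in Susp and 2.4% in Adh. This was CD86, a ligand that stimulates T cells. It rose from 14.4 ± 2.12 CPM in Sep to 47.7 ± 1.98 CPM in Susp (log2 1.73, SE 0.13, edgeR adjusted p = 2.59e-06) and 45.7 ± 6.45 CPM in Adh (1.67, SE 0.13, edgeR adjusted p = 5.35e-06). TNFRSF13B, a receptor for BAFF and APRIL, and ZBTB32 were the most abundant of the others, at 166.3 and 60.2 CPM in Sep, and did not pass the test.

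Of 16 B cell transcription factors edgeR called 0 in all 3 comparisons, with 7 in Susp, 3 in Adh and 2 between Adh and Susp at an unadjusted p under 0.05, and DESeq2 also called 0. POU2F2, which binds the octamer, stood at 324.8 CPM in Sep and 234.4 CPM in Adh (log2 -0.47, edgeR adjusted p = 0.0198), under the fold limit. PAX5 at 911.4 CPM, IKZF1 at 773.1 CPM and TCF3 at 550.8 CPM in Sep were the most abundant and did not pass the test. SPI1, the gene for PU.1, stood at 68.5 CPM in Sep, 88.5 CPM in Susp and 70.8 CPM in Adh (edgeR adjusted p = 0.304 in Susp).

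Beside these values 1 gene, MZB1, was called in a marker list of another B lineage stage. The 4 plasma cell genes summed to 104.5 to 118.2 CPM in Sep, 139.3 to 199.8 CPM in Susp and 140.0 to 162.2 CPM in Adh. MZB1, which helps to assemble IgM, accounted for the calls in this list (log2 0.74 in Susp and 0.59 in Adh, edgeR adjusted p = 0.018 and 0.0361), but without Susp replicate 2 its value of 0.54 in Susp was under the fold limit. SDC1, the defining surface marker of plasma cells, was at 4 counts or fewer in every library, and XBP1 and PRDM1 did not pass the test. The part of this list in the values of the family was not tested.

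The mouse counterparts were looked for in the stroma. Fcrl1, Fcrl5, Fcrl6, Fcrla and Fcrls had 0 counts in all 8 libraries that hold mouse RNA, which allows up to between 0.0867 and 0.297 CPM in a library. Fcrlb had 3 to 16 counts in MS-5 cells alone and 10 to 19 counts in the Adh libraries, whose mouse totals were larger (29495404 to 34615602 against 10097555 to 17397651). Of 16 mouse Fc receptor and Fc receptor-like genes 3 were fitted, and edgeR called 0, with 0 at an unadjusted p under 0.05, while 0.205% of the 12201 mouse genes fitted were called, and DESeq2 called 0 of the 3 as well. The neonatal Fc receptor Fcgrt was the most abundant, at 55.6 CPM in MS-5 cells alone and 62.2 CPM in Adh. B cell markers in the mouse counts (Ms4a1, Cd79a, Cd79b and Pax5) summed to at most 2 counts in a library.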

How the data were processed

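Gene counts of REC-1 cells (Sep, Susp and Adh) and MS-5 cells were used, 4 libraries each. According to the study's methods, poly-A RNA libraries were made with a TruSeq RNA kit and sequenced as paired ends. This type of kit does not mark strand. The authors divided read pairs by species with Xenome, aligned unique hits with STAR 2.5.1b to GRCh38 or GRCm38, and counted fragments per gene with featureCounts (Subread 1.5.2). The deposited values were raw counts, neither normalized nor filtered. A further 20 columns belong to samples of no group here and stayed out of every step, and the libraries were grouped by their labels.

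The 12 REC-1 libraries were fitted together in R 4.3.3 with edgeR 4.0.16 (filterByExpr, TMM, quasi-likelihood F-test, its earlier form), and the mouse counts of MS-5 and Adh libraries in a second model. CPM used TMM library sizes. Calls needed an adjusted p-value (Benjamini-Hochberg, over all genes fitted) no higher than 0.05 together with a 1.5-fold change or more. A prior count of 2 was added before the log2 CPM used for correlations. The fits were tested on simulated data. Positions, exon lengths, canonical transcripts and sequence came from GENCODE release 44 on GRCh38, and 98.1% of the human gene identifiers matched it. A sequence window is the 200 bases before the start of the canonical transcript of each protein-coding gene. Susp replicate 2 was kept here, although the authors' own tabulated Susp means follow the other 3 Susp libraries.

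The members and the gene lists were chosen with earlier results of these data known. The text names all 7 members and FCRL6, each list gene called in REC-1, up to 4 abundant genes of each list, and the 3 genes closest to each member by correlation. Genes near a threshold, genes lost or gained by DESeq2, and the nearest chromosome neighbours were named after their values were seen. Some genes of the lists are not reported here and were left out of the list counts and sums. Proteins were not analysed here. Alternatives were a replicate term, DESeq2 1.42.0, other normalizations and filters, mitochondrial genes left out, a model of the 2 groups alone, and leaving out each library. The canonical transcript length, the family shares without Susp replicate 2, and the lists without it and with DESeq2, were added after seeing the data.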

Additional observations from a re-analysis of the deposited data

Results flagged for a closer look

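In groups of 4 libraries the gap between the lowest or highest library and its nearest neighbour was compared with the range of the group, for the 7 members and the called genes of the lists. Of 42 groups 1 passed Dixon's limit for 4 values, and chance alone passes about 1 in 20. PECAM1 in Susp replicate 2 stood at 26.2 CPM, while the other 3 Susp libraries stood at 31.5 to 31.9 CPM, a gap of 0.939 of the range. The same library was the lowest Susp library for FCRL1, FCRL3 and FCRL5.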

How the results depend on the processing

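Each member's log2 difference kept its sign in every setting that was tried, with these exceptions: FCRLB in all 3 comparisons, and FCRL1 and FCRL3 between Adh and Susp. The number of genes called depended on the method. From Sep to Susp 94 genes were called, 172 with DESeq2, 217 with no low-count filter and 64 to 135 when 1 library was left out. From Sep to Adh 309 were called, 527 with DESeq2, 503 with no filter and 143 (without Sep replicate 2) to 490 (without Sep replicate 1) with 1 library left out. Between Adh and Susp 100 were called, 282 with DESeq2, 341 with no filter and 51 (without Adh replicate 1) to 92 with 1 library left out. In the mouse counts 25 were called, 38 with DESeq2, 45 with no filter and 8 (without MS-5 replicate 3) to 36 with 1 library left out. The cause was not tested. Members that met the call rule numbered 2 in both comparisons with Sep, and 1 to 4 in Susp and 0 to 3 in Adh with 1 library left out. The labels put a library of each group under each replicate number but do not say what a number marks. Deviations of same-numbered libraries correlated at -0.02 to 0.32, with replicate 1 highest in each comparison, and not every pair passed 0.1. These correlations cannot show whether the libraries are paired, and the main fit treated them as unpaired. With the replicate block 175 genes were called from Sep to Susp, 281 between Adh and Susp and 45 in the mouse counts, and the members that met the rule stayed at 2 in each comparison with Sep. Of the listed genes, the block added calls of HLA-DRA and SH2D2A from Sep to Adh and of IGHA1 between Adh and Susp, which the fit without it did not make. Counting error weighs most on FCGR2C and the genes at a few counts, and among the members on FCRLB.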
